A study of Mus musculus with 3 samples.

Results

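Splicing factors and nuclear RNA-binding proteins were taken as the genes whose symbol begins with Srsf, Hnrnp, Sf3a, Sf3b or Snrp, with *Snrpn* left out. The table of filtered cells held 51 such genes among its 14933, and the rule uses their symbols only. They comprised 11 SR proteins, 20 hnRNP proteins, 9 subunits of SF3A and SF3B, the 7 Sm core proteins, and 4 proteins specific to the U1 or U2 particle. The study sorted tdTomato-positive cells from the medial prefrontal cortex (mPFC) of C57BL/6 mice at postnatal day (P) 5 and made 1 single-cell RNA sequencing (scRNA-seq) library per genotype, to ask which genes *Tbr1*, a transcription factor of deep-layer cortical neurons, regulates in layer 5. All 3 groups carried the *Rbp4cre* driver, which recombines in layer 5 projection neurons, and the tdTomato reporter. The *Tbr1* wild-type library had no floxed *Tbr1* allele (Rbp4cre::tdTomato), the *Tbr1* layer 5 heterozygous library had 1 (Tbr1f/+::Rbp4cre::tdTomato), and the *Tbr1* layer 5 homozygous library had both alleles floxed (Tbr1f/f::Rbp4cre::tdTomato). How many animals were pooled in a library is not given in the sources used here.

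Most genes are transcribed with introns that the spliceosome removes. It is assembled from small nuclear ribonucleoprotein particles (snRNPs), in which a ring of Sm proteins holds the RNA, the U1 particle recognizes the start of the intron, and the U2 particle, with SF3A and SF3B, recognizes the branch point. SR proteins mostly bind exons and help the spliceosome choose them, whereas hnRNP proteins bind nascent RNA widely, often oppose exon use, and also take part in RNA export, stability and translation. Neurons splice many transcripts in their own way, and the balance among these proteins is one of the things that shifts as progenitors become neurons.

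The authors divided the 17396 filtered cells by clustering their expression and then filtered the neuronal clusters again on UMIs and genes per cell, so that the remaining cells can include neurons removed at that step. The cells they kept for comparing genotypes, called typical neuronal cells here, numbered 1778 in wild-type, 5357 in heterozygous and 3935 in homozygous mice. Neuronal cells they set aside for low *Neurod6* and *Nrgn* and abundant housekeeping transcripts, called atypical, numbered 304, 107 and 462, and the remaining sorted cells, called other cells, numbered 2873, 1398 and 1182 in the same order. A level is the number of unique molecular identifiers (UMIs, each a captured transcript molecule) of a gene summed over the cells of a class in 1 library, per 1000000 UMIs of those cells (CPM). The kit captures 3′ ends, so that a level does not grow with transcript length. With 1 library per genotype no difference between genotypes has a replicate check and no p-value was computed. The 95% intervals are exact, Poisson for a level and conditional binomial for a ratio, and cover counting error only.

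Typical cells gave 3670646 UMIs in wild-type, 10418228 in heterozygous and 6074494 in homozygous mice, and a median of 1902, 1743 and 1376 UMIs per cell. Their summed level of 9 excitatory neuron markers was 2145, 2561 and 3232 CPM, above the other cells of the same library at 679, 1966 and 1320. Markers of astrocytes and radial glia were not lower in typical cells (5994 to 6902) than in other cells (5502 to 5757). *Fabp7* made up most of that sum, at 4775 to 5713 in typical cells, and of the 9 markers *Fabp7* and *Aldoc* were higher in typical than in other cells of each library, 6 were lower in each, and *Aldh1l1* differed in direction, and microglia markers were at 38 to 63 against 1438 to 1611. *Tbr1* itself had 101, 320 and 136 UMIs in typical cells, or 27.5, 30.7 and 22.4 CPM. The deletion removes exons 2 and 3, which a 3′ count does not read, so that this does not check the genotype labels. Between 37 and 58 cell barcodes were shared by each pair of libraries.

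The promoters of these genes had features in common that their names did not determine. Windows of 250 bases upstream of a gene start in RefSeq (GRCm38.p6) were found for 45 of the 51 genes, 59 windows in all, and *Hnrnpll*, *Hnrnpul2*, *Sf3b4*, *Sf3b5*, *Snrpb* and *Snrpd1* had no entry. A GC box (GGGCGG on either strand) was in 71.2% of these windows and in 32.7% of all 32851 windows, and an ETS motif (CCGGAAG) was in 32.2% against 6.91%. A CCAAT box (CCAAT) was in 44.1% against 33.8%, a TATA box (TATAAA) in 8.47% against 12.4%, an NRF1 motif (GCATGCGC) in 5.08% against 2.26%, and a YY1 motif (AAGATGGC) in 1.69% against 1.56%. The median GC content was 61.6% in the windows of these genes and 52.4% in all windows, with a median of 20 against 6 CpG dinucleotides. The core of the T-box site that TBR1 binds (GGTGTGA, either strand) was in 1 window, that of *Srsf11*, or 1.69% against 3.33% of all windows. A match of letters is a description of the window and not evidence of binding, and a GC-rich window holds GC-rich letters more often. The comparison was with all windows, not with those of genes expressed in these cells. It therefore does not show a trait particular to these genes.

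The 4 windows shown here were chosen because their genes mark the ends of the comparisons that follow. *Srsf2* (chr11:116853095-116853344, minus strand) was among the lowest in typical against other cells, *Snrpd2* (chr7:19149588-19149837, plus strand) was the highest there, *Snrpg* (chr6:86371290-86371539, plus strand) was the one member past the fold between both mutant libraries, and *Hnrnpa1* (chr15:103240147-103240396, plus strand) differed most between atypical and typical cells. Capitals mark any of the 7 motifs on either strand, and neighboring GC boxes can overlap.
Srsf2: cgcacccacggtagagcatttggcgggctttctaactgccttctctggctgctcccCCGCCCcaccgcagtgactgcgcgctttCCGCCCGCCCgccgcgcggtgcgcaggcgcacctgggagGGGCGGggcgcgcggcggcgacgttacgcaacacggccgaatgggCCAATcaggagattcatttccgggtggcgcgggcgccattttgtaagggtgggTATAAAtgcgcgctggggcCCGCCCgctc
Snrpd2: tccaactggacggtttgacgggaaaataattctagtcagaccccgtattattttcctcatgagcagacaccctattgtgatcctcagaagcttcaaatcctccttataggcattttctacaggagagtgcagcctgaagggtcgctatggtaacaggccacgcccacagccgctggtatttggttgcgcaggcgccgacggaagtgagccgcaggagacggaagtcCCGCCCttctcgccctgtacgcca
Snrpg: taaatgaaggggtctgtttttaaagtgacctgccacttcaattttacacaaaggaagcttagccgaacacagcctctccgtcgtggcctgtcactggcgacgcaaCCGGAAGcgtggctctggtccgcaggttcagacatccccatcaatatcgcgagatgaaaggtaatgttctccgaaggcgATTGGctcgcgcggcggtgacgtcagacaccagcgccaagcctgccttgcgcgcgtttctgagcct
Hnrnpa1: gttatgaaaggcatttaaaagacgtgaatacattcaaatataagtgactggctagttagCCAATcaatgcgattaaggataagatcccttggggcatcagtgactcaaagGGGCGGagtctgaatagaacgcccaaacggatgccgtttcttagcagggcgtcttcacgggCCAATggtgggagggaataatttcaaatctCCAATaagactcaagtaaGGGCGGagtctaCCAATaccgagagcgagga
The *Srsf2* window held 7 matches, of which 5 were GC boxes, 1 a CCAAT box and 1 a TATA box. The *Snrpd2* window held 1 GC box, the *Snrpg* window an ETS motif and a CCAAT box, and the *Hnrnpa1* window 4 CCAAT boxes and 2 GC boxes.

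The 51 genes together took 0.606% of the UMIs of typical cells in wild-type, 0.571% in heterozygous and 0.614% in homozygous cells. Sm core proteins made up the largest part, with a summed level of 2396, 2061 and 2325 CPM, followed by hnRNP proteins with 1963, 2006 and 2113. SR proteins summed to 739, 723 and 732, subunits of SF3A and SF3B to 568, 559 and 573, and the U1 and U2 specific proteins to 395, 358 and 396. The order of the 5 groups was therefore the same in the 3 libraries, although hnRNP proteins and the Sm core lay close together in the heterozygous library. The median spliced length of the transcripts was 1055 bases for the Sm core and 1884, 2155 and 2077.5 bases for SR proteins, hnRNP proteins and SF3 subunits.

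*Snrpd2* (chromosome 7), a subunit of the Sm ring, had the highest level in typical cells, at 626 CPM in wild-type, 575 in heterozygous and 625 in homozygous cells. *Snrpg* (chromosome 6), another ring subunit, followed at 567, 428 and 538. These 2 genes stood clear of the rest in each library. *Hnrnpk* (chromosome 13), which binds C-rich RNA and DNA, was at 269.7, 332 and 363. *Snrpd3* (chromosome 10) was at 265, 260.1 and 305, *Hnrnpa2b1* (chromosome 6), a factor in splicing and RNA transport, at 266, 252 and 261, and *Snrpe* (chromosome 1) at 302, 229 and 249.9. In the wild-type library the intervals of *Hnrnpk*, *Snrpd3* and *Hnrnpa2b1* overlapped, and that of *Snrpe* overlapped the interval of *Hnrnpk*. *Snrpf* (chromosome 10) at 236, 247 and 261, *Hnrnpa1* (chromosome 15), which often represses exons, at 251, 239.7 and 249.6, *Snrpd1* at 226, 172 and 188, and *Sf3b5* (chromosome 10), a small SF3B subunit, at 149.6, 175 and 169 completed the 10 highest. 5 members had a mean below 20 CPM in typical cells, namely *Sf3a1*, *Sf3a2*, *Sf3a3*, *Sf3b3* and *Srsf12*, and *Srsf12* had 36, 132 and 69 UMIs. Several members, among them *Hnrnpa1*, *Snrpe* and *Snrpg*, have near-identical processed copies elsewhere in the genome, and how reads shared with such copies were counted is not given in the sources used here.

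**Figure D1:**
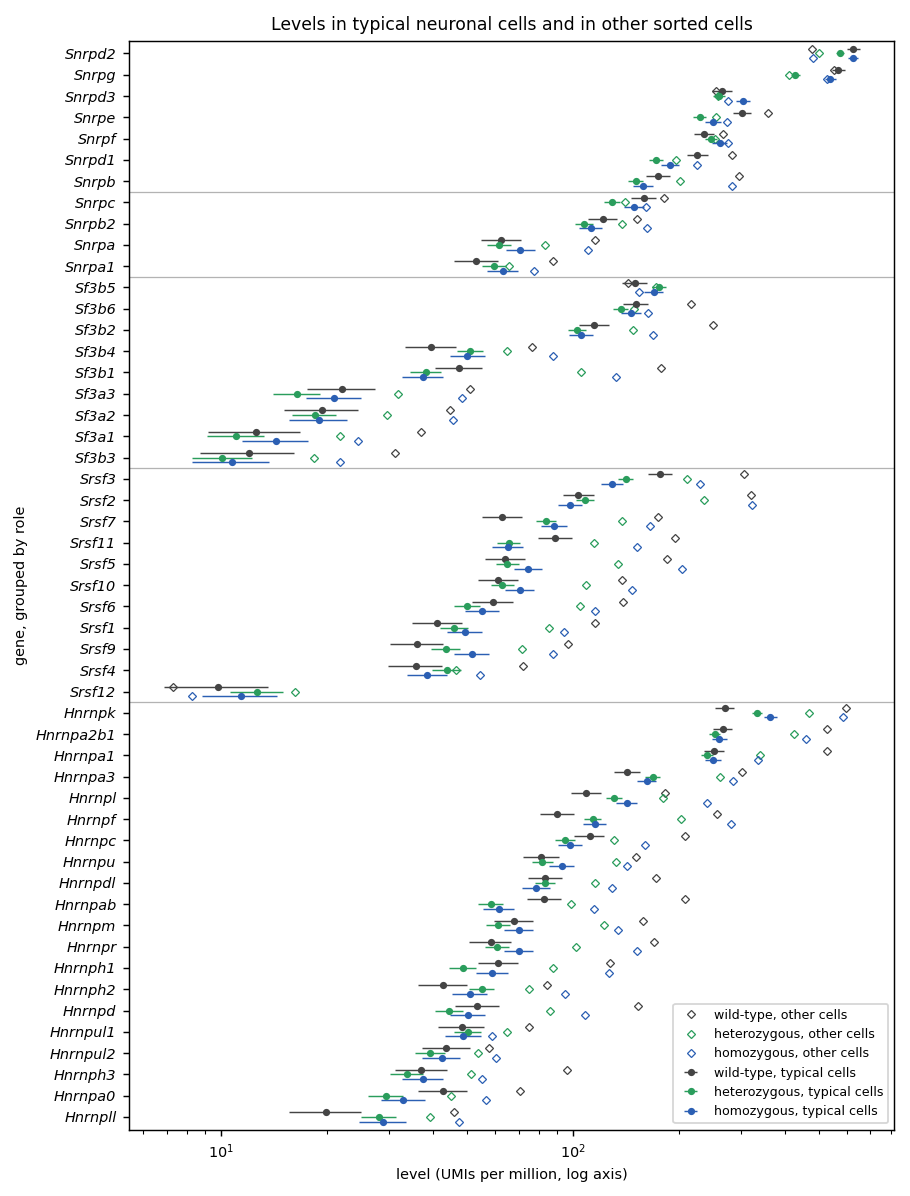
Level of each of the 51 genes in typical neuronal cells (filled circles, with exact 95% Poisson intervals) and in other sorted cells (open diamonds) of the wild-type, heterozygous and homozygous libraries, in CPM on a log axis, with genes grouped by role. Levels ran from 9.8 CPM for *Srsf12* to 626 for *Snrpd2* in typical cells of the wild-type library, *Snrpd2* and *Snrpg* were highest in typical cells, and the open diamonds of most SR and hnRNP proteins lay to the right of the filled circles.

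The next comparison addresses whether levels in typical neuronal cells differed with *Tbr1* genotype. Over the 51 genes the homozygous sum was nearly that of wild-type, with a log2 ratio of 0.02 (95% interval −0.01 to 0.04), and the heterozygous sum was slightly lower at −0.09 (−0.11 to −0.06). Of the 46 members with a mean of at least 20 CPM, 7 were higher and 5 lower in the homozygous than in the wild-type library by a log2 ratio beyond 0.32, the fold used throughout. Over all 4261 genes with that level, 17.2% were higher and 8.50% were lower by that fold. The median log2 ratio was 0.01 over the members and 0.08 over all genes. No member passed 1.5-fold in either direction.

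Among SR proteins 2 of 10 were higher and 2 lower in the homozygous library (17.2% and 8.50% of all genes). *Srsf9*, an SR protein that often opposes exon use, was at 36.0 CPM in wild-type, 43.4 in heterozygous and 51.5 in homozygous cells, a log2 ratio of homozygous over wild-type of 0.52 (95% interval 0.22 to 0.82). *Srsf7*, which links splicing to RNA export, was at 62.9, 83.9 and 88.4, a ratio of 0.49 (0.27 to 0.72). Both were higher in each mutant library than in wild-type, and the heterozygous ratio of *Srsf9*, 0.27 (−0.01 to 0.56), has an interval that includes 0. *Srsf3*, the smallest SR protein and the partner of *Srsf7* in export, was at 177, 141 and 128.9, a ratio of −0.45 (−0.61 to −0.30). *Srsf11*, an SR-related protein that acts on neuronal microexons, was at 88.8, 65.6 and 65.2, a ratio of −0.45 (−0.66 to −0.23). The other 6 stayed within the fold, and the summed ratio of SR proteins was −0.01 (−0.08 to 0.06).

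Among hnRNP proteins 4 of 20 were higher and 2 lower in the homozygous library, near the shares of all genes (17.2% and 8.50%). *Hnrnpk* had the most UMIs of those past the fold, 990, 3463 and 2206 in the wild-type, heterozygous and homozygous libraries, and its ratio was 0.43 (0.32 to 0.54). *Hnrnpl*, a repressor and activator that binds CA-rich RNA, was at 109.0, 131 and 142, a ratio of 0.38 (0.21 to 0.56). Its relative *Hnrnpll* had the largest ratio, 0.53 (0.13 to 0.95), at the low levels of 19.9, 28.0 and 28.8. *Hnrnpf*, which binds G-rich RNA, was at 90.2, 114 and 115, a ratio of 0.35 (0.16 to 0.55). All 4 were higher in both mutant libraries than in wild-type. *Hnrnpab* was at 82.8, 58.4 and 61.4, a ratio of −0.43 (−0.65 to −0.21), and *Hnrnpa0* at 42.8, 29.4 and 32.9, a ratio of −0.38 (−0.69 to −0.07). Of the SF3 subunits, *Sf3b4* was higher at 0.34 (0.05 to 0.64) and *Sf3b1*, the subunit that contacts the branch point, lower at −0.34 (−0.63 to −0.05). No Sm core protein and no U1 or U2 specific protein passed the fold, with ratios from −0.28 for *Snrpe* to 0.25 for *Snrpa1*. Without mitochondrial and ribosomal protein genes in the total, *Hnrnpf* and *Sf3b4* no longer passed and *Snrpe* did.

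In the heterozygous library, compared with the same wild-type library, 5 of 46 members were higher and 8 lower, where 17.1% of all genes were higher and 9.50% lower. With atypical cells included 2 were higher. The median log2 ratio was −0.05 over the members and 0.06 over all genes. The 8 lower members included 3 of the 7 Sm core proteins. *Snrpg*, with 2081 UMIs in the wild-type and 4457 in the heterozygous library, had a ratio of −0.41 (−0.48 to −0.33), *Snrpe* −0.40 (−0.50 to −0.30) and *Snrpd1* −0.39 (−0.51 to −0.27). In other cells the sums were lower at −0.26 for the Sm core, −0.47 for SR proteins, −0.44 for hnRNP proteins and −0.39 over all members. In typical cells the Sm core sum was lower at −0.22 (−0.25 to −0.18). The sums there of SR proteins, −0.03 (−0.10 to 0.03), and hnRNP proteins, 0.03 (−0.01 to 0.07), had intervals that include 0. The lowest ratios were those of *Hnrnpa0*, −0.54 (−0.82 to −0.26), *Hnrnpab*, −0.51 (−0.71 to −0.30), and *Srsf11*, −0.44 (−0.63 to −0.24), and *Hnrnph1* at −0.33 and *Srsf3* at −0.32 just passed the fold, *Srsf3* not with TMM or DESeq2 scaling. The highest were *Hnrnpll*, 0.49 (0.12 to 0.89), *Srsf7*, 0.41 (0.20 to 0.63), *Sf3b4*, 0.37 (0.10 to 0.64), *Hnrnph2*, 0.36 (0.11 to 0.63), and *Hnrnpf*, 0.33 (0.16 to 0.51), the last not without mitochondrial and ribosomal protein genes. Both mutant libraries were set against the same wild-type library, so that an unusual wild-type value enters both ratios. Typical cells of the wild-type library also stood apart in blood markers (345 CPM against 44.6 in heterozygous and 85.8 in homozygous cells). They also differed in meningeal markers (313 against 32.9 and 46.1) and median ribosomal share (23.8% against 17.8% and 19.2%). Without mitochondrial and ribosomal protein genes in the total, 4 members were higher and 9 lower in the heterozygous library. Of all genes 15.5% were then higher and 10.7% lower. The part of blood and meningeal markers in the ratios was not tested, and that of the ribosomal share was not tested further.

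Directly between the mutant libraries the members were nearer to each other. *Snrpg* alone was past the fold, at 428 CPM in heterozygous and 538 in homozygous cells, a ratio of 0.33 (0.27 to 0.40), and no member was lower by that fold. Of all genes 4.04% were higher and 2.68% lower in the homozygous library. *Snrpg* did not pass the fold with TMM factors (0.31), with DESeq2 size factors (0.31) or without mitochondrial and ribosomal protein genes (0.29). Next in order came *Hnrnph1* (0.27), *Srsf9* (0.25), *Snrpd3* (0.23) and *Snrpc* (0.21), and the lowest were *Srsf4* (−0.18), *Srsf2* (−0.14), *Srsf3* (−0.13), *Hnrnph2* (−0.11) and *Hnrnpdl* (−0.09). The median was 0.09 over the members and 0.01 over all genes.

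Free RNA in the droplets was measured in barcodes of 100 UMIs or more that stayed under 500, called empty droplets here. Of the members past the fold in typical cells, 12 of 12 had the same sign in empty droplets for homozygous over wild-type and 12 of 13 for heterozygous over wild-type. The exception was *Hnrnph1*, at −0.33 in typical cells and 0.00 in empty droplets. The same share over all genes past the fold was not computed, so that these counts are not read as a result about the members. The summed SR ratio, heterozygous over wild-type, was −0.03 in typical cells and 0.05 in empty droplets. For *Snrpg*, *Snrpe* and *Snrpd1* the heterozygous over wild-type ratio in empty droplets was −0.50, −0.45 and −0.52. For the homozygous over wild-type comparison it was 0.54 for *Hnrnpll*, 0.61 for *Hnrnpl*, 0.28 for *Hnrnpk* and −0.53 for *Hnrnpab*. *Srsf7* (0.22), *Srsf3* (−0.29), *Srsf11* (−0.16) and *Sf3b1* (−0.16) had ratios smaller in size in empty droplets than in typical cells. The same held for *Srsf9*, *Hnrnpk*, *Hnrnpf* and *Hnrnpa0*, whereas the ratio of *Sf3b4* was larger in empty droplets. In other cells of the same libraries *Srsf9* (−0.13), *Srsf7* (−0.08) and *Hnrnpk* (−0.03) were not higher in the homozygous library. *Hnrnpl* was higher there, at 240 CPM against 183 in wild-type, as were *Hnrnpf* (281 against 256), *Sf3b4* (87.9 against 76.5) and, by little, *Hnrnpll* (47.4 against 46.0). *Hnrnpab* (−0.86), *Srsf3* (−0.42) and *Srsf11* (−0.36) were lower in other cells as well, where the 51 genes together were lower at −0.16. The part of free RNA in the genotype ratios was not tested beyond a subtraction of the empty-droplet profile. It was subtracted at 21.9%, 8.31% and 16.1% in the wild-type, heterozygous and homozygous libraries. These were the lowest shares that 4 lists gave, those of microglia, endothelial, mural and meningeal markers (up to 33.1%, 20.8% and 28.1%). No count of members past the fold then moved by more than 1.5 times. Cycling markers, not among these lists, were at 100, 74.6 and 106 CPM in typical cells and 230, 154 and 168 in empty droplets. A larger subtraction was not tested.

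**Figure D2:**
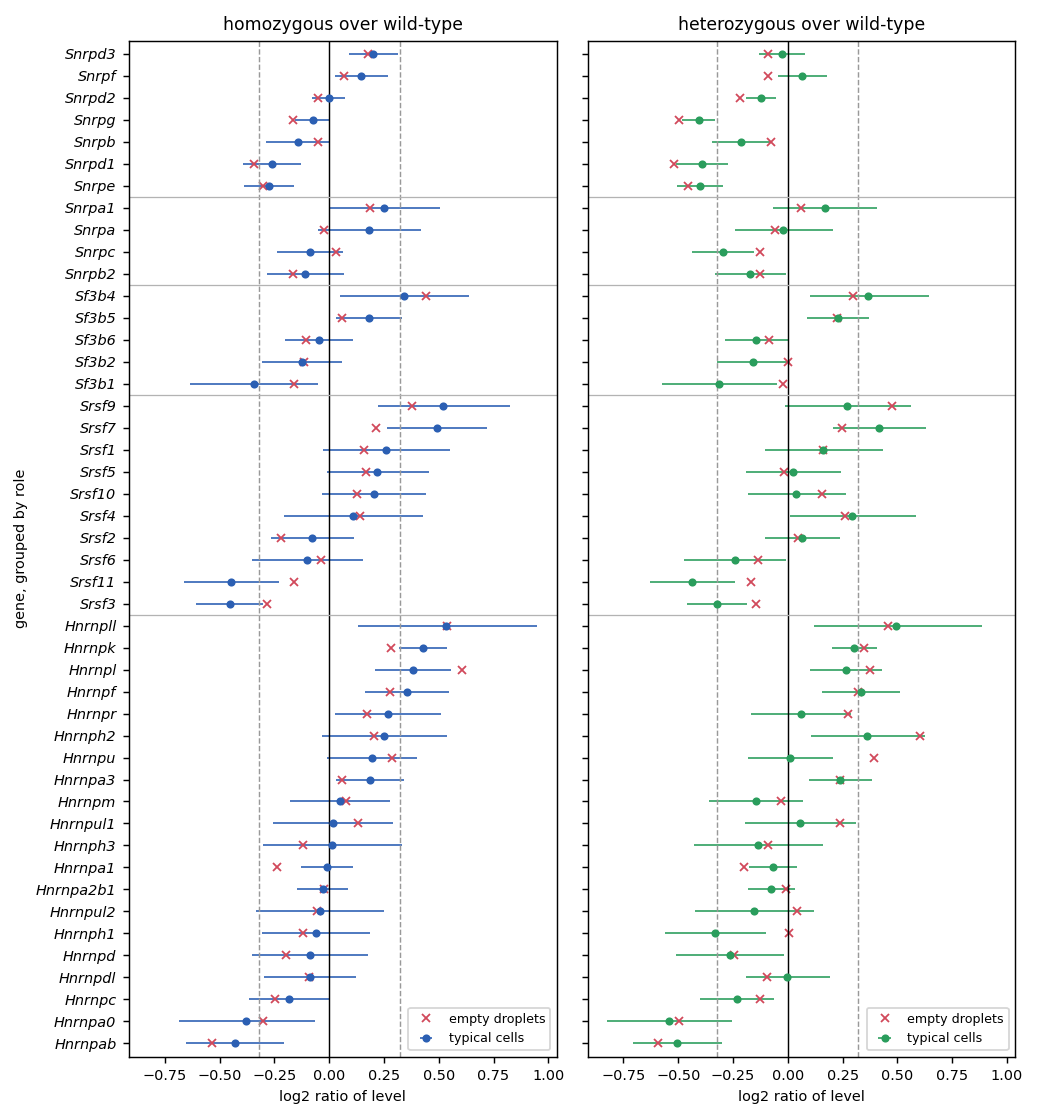
Log2 ratio of level in typical cells (circles with 95% counting intervals) and in empty droplets (crosses), homozygous over wild-type on the left and heterozygous over wild-type on the right, for the 46 members with a mean of at least 20 CPM; dashed lines mark the fold. Members lay on both sides of 0, from −0.45 for *Srsf3* to 0.53 for *Hnrnpll* on the left.

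The members were next compared between cell classes within each library. In typical neuronal cells most SR and hnRNP proteins were lower than in the other cells sorted into the same library, whereas the Sm core was near 0 on the log2 CPM scale. On the CPM scale, 37 of 49 members compared were lower than the fold in typical cells in each of the 3 libraries and 0 were higher. Over all 5184 genes compared 36.0% were lower and 7.12% were higher. Medians of the log2 ratio, typical over other, were −1.04, −0.53 and −0.77 over the members and −0.40, −0.18 and −0.28 over all genes in the wild-type, heterozygous and homozygous libraries. Since the authors drew these classes by clustering the same cells, the differences are a description. All members together summed to 6061, 5707 and 6138 CPM in typical cells of these libraries, in the same order. Their sums were 6695, 6383 and 6595 in empty droplets and 9964, 7587 and 8907 in other cells. In each library the sum in typical cells was thus nearer to that of free RNA, and below it. The part of free RNA in the class ratios was not tested.

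The scaling of the libraries moved these counts. With TMM factors of edgeR 12 members were lower and 6 higher, and of all genes 17.1% were lower and 37.2% higher. With size factors of DESeq2 17 members were lower and 4 higher, against 19.8% and 31.5% of all genes. The median of all genes moved from −0.29 to 0.26 and 0.17 with these scalings, and that of the members from −0.77 to −0.23 and −0.32. These scalings shift members and all genes by the same amount. Without mitochondrial and ribosomal protein genes in the total, 32 members were lower and 0 higher, against 28.9% and 13.4% of all genes. The median cell had 10.4, 15.4 and 12.5% mitochondrial UMIs in typical cells and 4.45, 13.0 and 7.95% in other cells of the wild-type, heterozygous and homozygous libraries, and their part in the result was not tested further. Other cells also held many more blood transcripts, with 5 markers, hemoglobin genes among them, at 8843, 4907 and 9528 CPM against 345, 44.6 and 85.8 in typical cells, and the part of this was not tested. RNAs that are retained in the nucleus were also far lower in typical cells, as seen in 2 genes chosen after their values were seen. *Malat1* was at 1129.5 CPM in typical against 33113 in other cells of the wild-type, 348 against 14926 of the heterozygous and 594 against 26359 of the homozygous library. *Meg3* was at 49.6 against 1469.7, 28.2 against 1099.9 and 28.0 against 1553. The part of a difference in nuclear RNA in the ratios of members was not tested.

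SR proteins were the group with the lowest median, −1.04 for the mean of the 3 libraries. On the CPM scale 9 of 10 were lower in every library, where 36.0% of all genes were. With TMM factors the median was −0.49 and 6 were lower (17.1% of all genes), and with DESeq2 size factors it was −0.59 and 7 were lower (19.8%). *Srsf2*, an SR protein that stays in the nucleus, was at 103.5, 108 and 98.1 CPM in typical cells and at 320, 235 and 322 in other cells of the wild-type, heterozygous and homozygous libraries. The classes did not overlap, and the log2 ratios were −1.63, −1.12 and −1.72. *Srsf5*, at 64.0, 65.1 and 74.6 in typical and 184, 134 and 204 in other cells, had ratios of −1.53, −1.04 and −1.45. Both genes also passed the fold in every library with TMM and DESeq2 scaling. *Srsf4*, at a ratio of −0.09 (−0.33 to 0.16) in the heterozygous library, was the one tested SR protein that did not pass in every library, and *Srsf12*, with levels from 7.3 to 16.2, was below the floor.

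Among hnRNP proteins 19 of 20 were lower in every library on the CPM scale (36.0% of all genes), with a median of −0.79. With TMM factors the median was −0.24 and 4 of 20 were lower, near the share of all genes (17.1%). With DESeq2 size factors it was −0.33 and 7 were lower, where 19.8% of all genes were. *Hnrnpf* was at 90.2, 114 and 115 CPM in typical and 256, 202 and 281 in other cells, with ratios of −1.51, −0.83 and −1.28. *Hnrnpd*, which also binds AU-rich elements and sets RNA stability, was at 53.4, 44.4 and 50.2 against 153, 86.1 and 108, with ratios of −1.52, −0.95 and −1.10. By the mean of the 3 libraries these were the lowest hnRNP proteins, and both were also lower with TMM and DESeq2 scaling. The most abundant hnRNP genes in typical cells were lower by less than *Hnrnpf* and *Hnrnpd*. *Hnrnpk*, *Hnrnpa2b1* and *Hnrnpa1* lay around the group median, at means of −0.77, −0.85 and −0.66. *Hnrnpk* had ratios of −1.14, −0.49 and −0.69, *Hnrnpa2b1* −0.99, −0.75 and −0.82, and *Hnrnpa1* −1.06, −0.50 and −0.43. *Hnrnpul1*, at −0.64, −0.37 and −0.28, was the one hnRNP gene that missed the fold in a library.

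The lowest ratio of any member was that of *Sf3b1*, the largest SF3B subunit. It was at 47.4, 38.1 and 37.4 CPM in typical and 178, 106 and 133 in other cells, with log2 ratios of −1.91 (−2.14 to −1.68), −1.47 (−1.67 to −1.27) and −1.83 (−2.07 to −1.58), and its mean was −1.19 with TMM factors and −1.28 with DESeq2 size factors. Subunits of the same complex differed from it. *Sf3b5* was at 149.6, 175 and 169 in typical and 143, 172 and 154 in other cells, with ratios of 0.06, 0.03 and 0.14, and *Sf3b6*, which sits at the branch point next to *Sf3b1*, had ratios of −0.52, −0.12 and −0.16. In all, 6 of 8 SF3 subunits tested were lower in every library on the CPM scale (36.0% of all genes). With TMM factors 2 were lower (17.1% of all genes) and with DESeq2 size factors 3 (19.8%), and *Sf3b5* was higher with both of these.

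On the CPM scale the Sm core was the group nearest to 0, which does not hold with TMM or DESeq2 scaling, where the U1 and U2 specific proteins and hnRNP proteins were nearer. Its summed ratio was −0.05 (−0.09 to −0.02), −0.01 (−0.05 to 0.03) and −0.01 (−0.05 to 0.03), although its direction depends on the scaling, with a median over its genes of −0.10 on the CPM scale, 0.45 with TMM factors and 0.36 with DESeq2 size factors. The corresponding summed ratios were −1.09, −0.62 and −0.78 for hnRNP proteins and −1.24, −0.81 and −1.11 for SR proteins. The gap between these groups within a library does not depend on the scaling, which shifts all genes alike. *Snrpd2*, at 626, 575 and 625 CPM in typical and 476, 499.5 and 482 in other cells, had the highest ratio of any member above the floor, 0.39 (0.32 to 0.47), 0.20 (0.13 to 0.27) and 0.38 (0.28 to 0.47), and was past the fold in 2 of the 3 libraries. *Snrpg* had ratios of 0.04, 0.06 and 0.03, *Snrpd3* of 0.06, 0.01 and 0.14, and *Snrpf* of −0.17, −0.04 and −0.08. *Snrpb*, which encodes the ring subunit SmB, was the one Sm core gene below the fold in every library, at 175, 151 and 158 in typical and 296, 201 and 284 in other cells, with ratios of −0.76, −0.42 and −0.84. Its paralog *Snrpn*, which encodes the form of this subunit enriched in neurons and was left out of the set, was at 983, 1353 and 1396 in typical and 444, 980.0 and 739 in other cells. Of the particle-specific genes *Snrpa* (U1) had ratios of −0.88, −0.44 and −0.64 and *Snrpb2* (U2) −0.32, −0.35 and −0.53, while *Snrpc* (U1) and *Snrpa1* (U2) did not pass in every library. With TMM factors *Snrpd2*, *Snrpd3*, *Snrpf*, *Snrpg* and *Snrpc* were higher than the fold in every library, and with DESeq2 size factors *Snrpd2*, *Snrpd3* and *Snrpg* were. With TMM or DESeq2 scaling *Snrpb*, *Snrpa* and *Snrpb2* no longer passed in every library, and *Snrpb* and *Snrpb2* did not without mitochondrial and ribosomal protein genes.

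**Figure D3:**
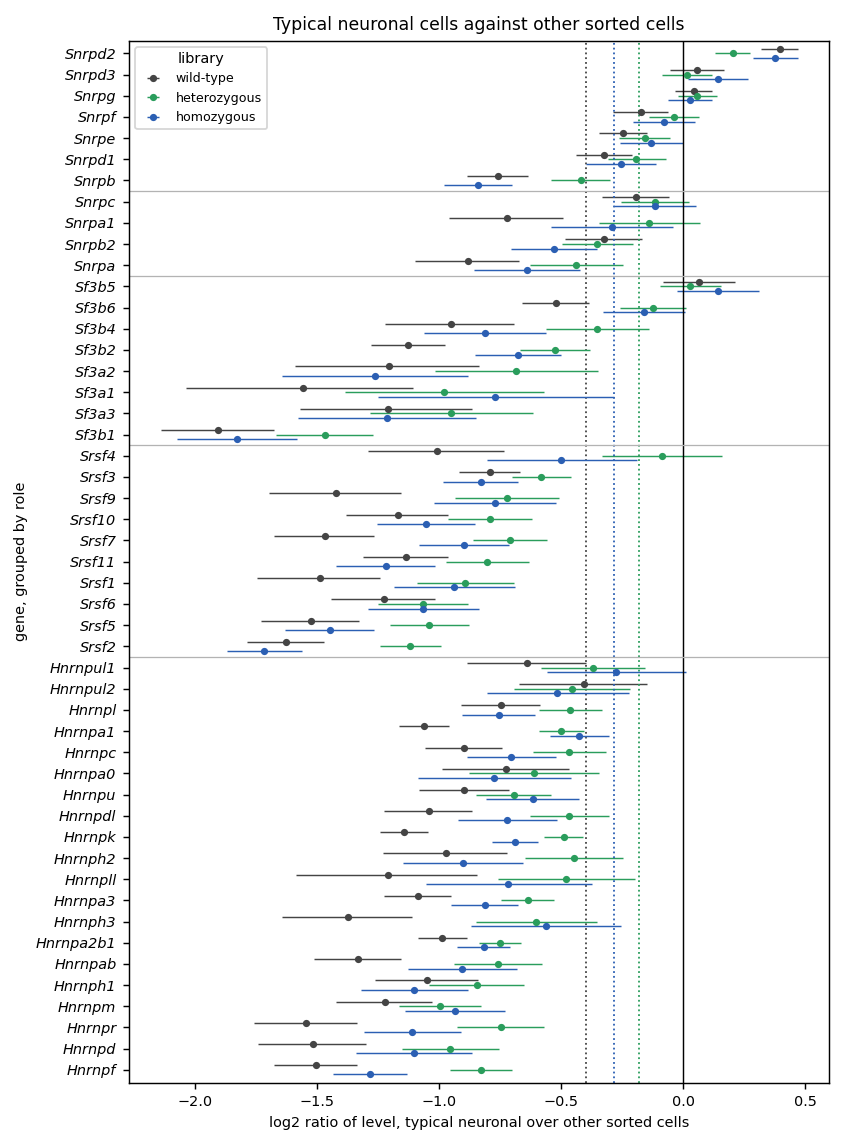
Log2 ratio of level in typical neuronal over other sorted cells for the 49 members tested, in each library, with 95% counting intervals; dotted vertical lines mark the median of all genes tested in the library of that color. Sm core genes lay around 0, from −0.84 for *Snrpb* to 0.39 for *Snrpd2*, most SR and hnRNP genes lay to the left of the dotted lines, down to −1.72 for *Srsf2*, and the SF3B subunit *Sf3b1* reached −1.91.

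The median ratio was nearest to 0 in the heterozygous library, whose other cells differed from those of the other libraries. Their summed level of excitatory neuron markers was 1966 CPM against 679 in the wild-type and 1320 in the homozygous library, and their members summed to 7587 against 9964 and 8907. The part of this in the smaller ratios was not tested. Thinning every cell to 1000 UMIs, which left out 0 cells, gave 33 members lower and 0 higher in every library, against 33.5% and 7.97% of all genes. Before thinning the median was 2492, 2543 and 1754.5 UMIs per cell in other cells.

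Other cells were a mixture, and the members varied within it. Cells were grouped by at least 3 UMIs of 1 list of cell type markers and at least 2 times as many as of any other list, which placed 1991 of 2873, 872 of 1398 and 844 of 1182 other cells, and a group is described as bearing these markers rather than as a cell type. The summed level of the 51 genes was highest in cells bearing cycling markers. There were 80 such cells in the wild-type library, with 18457 CPM against 6061 in typical cells, a log2 ratio of 1.61, and a median of 3945.5 UMIs per cell. *Hnrnpa2b1* (1346) and *Hnrnpa1* (1331) had the highest levels there. *Hnrnpab*, at 82.8 in typical cells of that library, was at 604 in cells bearing cycling markers.

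Cells bearing inhibitory neuron markers had 11617, 10889 and 9439 CPM over 154, 78 and 65 cells. Their SR protein sum was 1924, 1994 and 1886, above typical cells by 1.38, 1.46 and 1.37 on the log2 scale, and their hnRNP sum was 5261, 5049 and 4089. *Srsf2* was at 363, 472 and 529 in these cells and *Hnrnpa1* at 866, 755 and 463. The Sm core sum was 2643, 2219 and 2075, close to typical cells at log2 ratios of 0.14, 0.11 and −0.16.

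The list of astrocytes and radial glia, led by *Fabp7*, did not set cells apart, since 38.0, 38.8 and 39.3% of other cells met its rule but also 74.2, 59.7 and 56.0% of typical cells. The 1092, 543 and 465 other cells that met it had member sums of 8479, 6679 and 7505 and are not read as glia. The rule for excitatory neuron markers was met by 1.07, 3.02 and 3.56% of typical and 1.01, 2.07 and 1.61% of other cells. It therefore did not pick out the typical cells either. For inhibitory neuron markers the shares were 5.36, 5.58 and 5.50% of other and 0.562, 0.709 and 0.915% of typical cells, and 0 typical cells met the rule for microglia, endothelial or cycling markers. Microglia markers went with sums of 7776, 9069 and 9499 and endothelial markers with 8489, 9243 and 9646. In the wild-type library alone enough cells bore markers of the oligodendrocyte lineage (10885, 65 cells), mural cells (9505, 67 cells) and meningeal fibroblasts (7550, 69 cells). Each of these groups was above the typical cells of its library in SR, hnRNP and SF3 sums, and Sm core sums differed from typical cells by −0.35 to 0.14 on the log2 scale in every group but cycling cells, where the difference was 0.73. With TMM or DESeq2 scaling these ratios were not computed, and that scaling shifts typical cells upward relative to other cells.

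**Figure D4:**
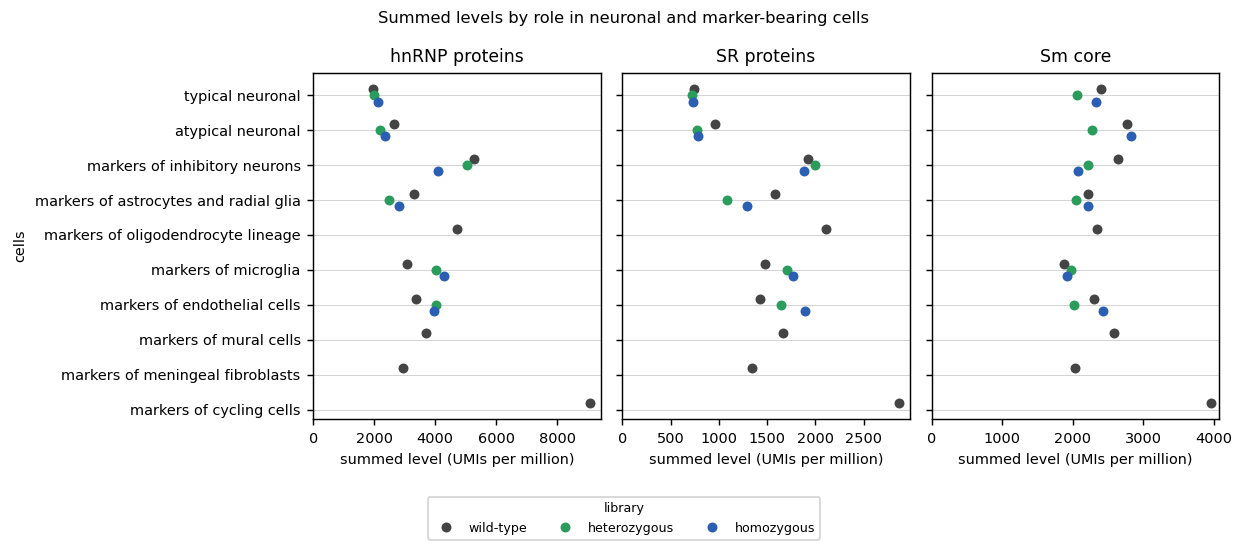
Summed level of hnRNP proteins, SR proteins and the Sm core, in CPM from 0, in typical and atypical neuronal cells and in other cells bearing markers of 1 cell type, by library; groups of fewer than 50 cells in a library are not drawn. Cells bearing cycling markers were highest in each panel, and the Sm core of the other groups stayed between 1875 and 2829 while hnRNP sums ranged from 1963 to 5261.

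Atypical neuronal cells had slightly more of these transcripts than typical cells of the same library. The median over members, on the mean of the libraries, was 0.16 on the CPM scale, 0.24 without mitochondrial and ribosomal protein genes and 0.04 with TMM factors. High housekeeping expression was among the grounds on which the authors set them aside, so that the class is not independent of broadly expressed genes such as these. Their excitatory marker *Neurod6* was at 50.3, 46.2 and 55.0 CPM against 201, 246 and 239.9, but the 9 excitatory markers together were at 780, 2650 and 1487, in the heterozygous library no lower than in typical cells. The members took 0.753, 0.608 and 0.686% of their UMIs. The median log2 ratio, atypical over typical, was 0.32, 0.15 and 0.06 over the 37 members averaging 50 CPM or more, and −0.03, −0.09 and −0.09 over all 2177 genes tested. Of the members 1 was higher than the fold in every library and 0 were lower, where 3.40% of all genes were higher and 8.31% lower. That member was *Hnrnpa1*, at 439.5, 309.8 and 431 in atypical and 251, 239.7 and 249.6 in typical cells, with ratios of 0.81, 0.37 and 0.79. The lower bounds of their intervals were 0.61, −0.00 and 0.61, and the heterozygous value rests on 67 UMIs in 107 cells, and *Hnrnpa1* no longer passed in every library with TMM factors, at a mean ratio of 0.53, or with the mean over cells, at 0.60. *Hnrnpd* (mean 0.53), *Snrpf* (0.41), *Snrpg* (0.39) and *Hnrnpdl* (0.35) followed. *Snrpb2* (−0.42), *Snrpb* (−0.26), *Snrpd1* (−0.19), *Snrpc* (−0.15) and *Snrpa1* (−0.14) were lowest, none of them past the fold in every library, although *Snrpb2* passed with TMM and DESeq2 factors. Blood markers were at 345, 60.1 and 997 in atypical against 345, 44.6 and 85.8 in typical cells, and *Malat1* was at 13185, 3505 and 2663 in atypical cells, and the part of either was not tested.

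Other genes of the spliceosome and known regulators of neuronal splicing were counted for context. Of 67 other splicing genes 45 had the level to be compared between genotypes, and 2 were higher and 9 lower in the homozygous than in the wild-type library, where 17.2% and 8.50% of all genes were. *Srrm2*, a scaffold of nuclear speckles, was at −0.52 and *Srpk2*, a kinase of SR proteins, at −0.51, while *Snrnp40* was at 0.56, *Lsm7* at 0.52 and *Snrnp27* at 0.32. In the heterozygous library 0 were higher and 5 lower (17.1% and 9.50% of all genes), led by *Son* (−0.77), a speckle protein, and *Srrm2* (−0.66), with *Snrnp40* (0.31), *Lsm3* (0.25) and *Prpf38a* (0.16) at the other end. Between the mutant libraries, with 4.04% of all genes higher and 2.68% lower, 3 were higher in the homozygous (*Lsm7* 0.41, *Son* 0.37, *U2af2* 0.35) and 1 was lower (*Luc7l* −0.56), before *Snrnp25* (−0.23) and *Acin1* (−0.18). In typical against other cells 0 of 53 were higher and 33 lower on the CPM scale (7.12% and 36.0% of all genes), the lowest being *Clk1*, a kinase of SR proteins, at a mean of −3.05. In atypical against typical cells 0 of 34 passed in either direction (3.40% of all genes higher and 8.31% lower).

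Of 30 regulators of neuronal splicing 24 were compared between genotypes. In the homozygous library 4 were higher and 3 lower (17.2% and 8.50% of all genes), with *Ewsr1* (0.57), *Elavl1* (0.37) and *Rbfox2* (0.34) highest and *Srrm4* (−0.53), which drives neuronal microexons, *Elavl4* (−0.35) and *Elavl3* (−0.34) lowest. In the heterozygous library 1 was higher and 3 lower (17.1% and 9.50% of all genes), with *Ewsr1* (0.49), *Elavl1* (0.27) and *Rbfox3* (0.24) highest and *Qk* (−0.57), *Srrm4* (−0.48) and *Celf1* (−0.34) lowest. Between the mutant libraries, where 4.04% of all genes were higher and 2.68% lower, *Qk* was higher in the homozygous at 0.35, followed by *Nono* (0.21) and *Rbfox2* (0.19), and 0 were lower, with *Elavl4* (−0.25), *Rbfox1* (−0.18) and *Sfpq* (−0.13) lowest. In typical against other cells 1 of 27 was higher, *Rbfox3* at a mean of 0.80, which encodes the neuronal marker NeuN, and 17 were lower on the CPM scale (7.12% and 36.0% of all genes), the lowest being *Mbnl1* at −2.28. The other scalings, which moved the counts of members, were not applied to these lists. In atypical against typical cells 0 of 16 were higher and 1 lower (3.40% and 8.31% of all genes), *Elavl2* at −1.40.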

How the data were processed

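Sorted tdTomato-positive cells were captured with the 10X Genomics single-cell 3′ kit, 1 library per genotype. Cell Ranger 2.0.1 and mm10 are named in the submitters' processing notes as the source of the deposited counts of UMIs, and a second deposited table gives raw counts of the 17396 cells that passed their limits on mitochondrial share, UMIs and genes. The deposited list of cells gives mitochondrial and ribosomal shares as a fraction, printed here as percent. The tables of normalized neuronal values were not used. Member sums agreed exactly between matrices and table for 51 of 51 genes in each library.

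Raw UMIs were summed per library and class and scaled to 1000000 UMIs (CPM) with Python 3.11.15, numpy 2.4.6, pandas 2.3.3 and scipy 1.17.1. Ratios were set against a log2 fold of 0.32 among genes averaging 20 CPM or more (50 for atypical cells). Cells of 1 library are not replicates of a genotype, so that no test was run and the cell-level test of the study was not repeated. At 73 UMIs, the wild-type count of *Hnrnpll*, the interval of a log2 ratio spans 0.13 to 0.95. No doublet caller was run, and leaving out the 5% deepest cells stood in for one. Scaling factors came from edgeR 4.0.16 and DESeq2 1.42.0 in R 4.3.3. Steps were tested on simulated data.

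The rule for the genes uses symbols only, but it and the gene lists were chosen with earlier results of these data known. Values were given in full for the 10 members highest in typical cells and the 5 furthest up and down in each comparison, and for the 3 furthest up and down of each context list in each genotype comparison, except for 1 gene that is not reported here. Context genes named in class comparisons were chosen after their values were seen.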

Additional observations from a re-analysis of the deposited data

Results flagged for a closer look

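*Sf3b2*, which encodes a subunit of SF3B, was higher in atypical than in typical cells of the wild-type library, at a log2 ratio of 0.34 (95% interval 0.01 to 0.66), and lower in the homozygous library, at −0.43 (−0.85 to −0.05). It was at 145 against 115 CPM in the wild-type and at 77.8 against 105 in the homozygous library, from 98 and 58 UMIs in atypical cells, while the heterozygous ratio was 0.28 (−0.33 to 0.83). It was noted because the counting intervals exclude 0 on opposite sides, and the difference between the libraries was not tested. It was 1 of 37 members compared in 3 libraries.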

How the results depend on the processing

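No paired analysis was possible because each genotype has 1 library, and no library could be left out. Each count of members past the fold was compared under each alternative that applied to it. Of these comparisons, 71 stayed within 1.5 times and 31 did not. Shares in parentheses are those of all genes past the same fold in the same direction. Without scaling for depth (mean raw UMIs per cell) the homozygous over wild-type counts were 0 higher and 26 lower (1.01% and 52.4%), the heterozygous over wild-type count was 2 higher (10.4%), the homozygous over heterozygous counts were 0 higher and 11 lower (0.516% and 49.7%), and the atypical over typical count was 2 higher (5.01%). At 1.5-fold each genotype count was 0 higher and 0 lower (0.681 to 3.59% and 0.469 to 2.39%), the typical over other count was 22 lower (23.9%) and the atypical over typical count 0 higher (1.52%). For homozygous over heterozygous, the count of 1 higher became 0 with TMM factors (3.59%), with DESeq2 size factors or without mitochondrial and ribosomal protein genes (3.10%), 2 with thinned cells (5.09%) and 3 without a floor. The heterozygous over wild-type count was 2 higher (17.2%) with atypical cells included. Typical over other counts were 6 higher and 12 lower (37.2% and 17.1%) with TMM factors and 4 higher and 17 lower (31.5% and 19.8%) with DESeq2 size factors. For atypical over typical, 3 were higher (5.01%) without mitochondrial and ribosomal protein genes, 3 higher and 1 lower (3.45% and 7.49%) with thinned cells, 0 higher (3.45%) with the mean over cells, 0 higher and 1 lower (2.02% and 13.4%) with TMM factors, and 1 lower with DESeq2 size factors (8.82%) or without the deepest cells (7.63%). The ratio of a named member was likewise taken once per alternative. Of these values, 550 stayed within the error of the main ratio, 82 moved and 3 reversed. That error was the counting interval for genotype ratios and the standard deviation over the 3 libraries, which differ in genotype, for class ratios. The sign changed in 34, of which 21 were without scaling for depth, and 3 of these had a ratio, or mean ratio, past 0.32: *Hnrnpl*, homozygous over wild-type (−0.0384), *Snrpg*, homozygous over heterozygous (−0.0026), and *Snrpd2*, typical over other (−0.26). *Snrpf*, typical over other, went from −0.10 to 0.45 with TMM factors. The causes were not tested. Depth limits the atypical cells of the heterozygous library most, with 216259 UMIs.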
